A study of Mus musculus with 19 samples.

Results

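Levels of 9 genes that heart capillaries use to take up fatty acids were followed in 19 RNA sequencing libraries of mouse heart. They were chosen by their known role in capillary lipid handling, with earlier results of these data known, and are Meox2, Tcf15, Lpl, Gpihbp1, Cd36, Fabp4, Fabp5, Aqp1 and Car4. All 9 were among the 25239 gene symbols of the count table, and all 9 were among the 14301 genes with enough counts to be tested. The hearts came from Mcm8 knockout mice given LCWE (n = 5), Mcm8 knockout mice given PBS (n = 3), wild-type mice given LCWE (n = 6) and wild-type mice given PBS (n = 5). Mcm8 encodes a DNA helicase of the minichromosome maintenance family. LCWE, a cell wall extract of Lactobacillus casei, is used in mice to model the vasculitis of Kawasaki disease, and the study asked what loss of Mcm8 does to vessels in that model. The labels give no dose, time after LCWE, age, sex or strain, and do not say which allele was used or whether each sample is a separate animal, so any p-value here reflects sample-to-sample spread, which may be technical.

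The heart burns mostly fatty acids, which arrive in the blood as triglycerides in lipoproteins or bound to albumin. Lipoprotein lipase, made mainly by cardiomyocytes, is carried to the capillary surface by GPIHBP1, where it frees fatty acids from triglycerides. CD36 and the small binding proteins FABP4 and FABP5 then move them through the endothelial cell, and the transcription factors MEOX2 and TCF15 together switch on several of these genes in heart capillaries. The water channel aquaporin 1 and carbonic anhydrase 4 are not lipid carriers, but sit at the surface of the same capillary cells and serve as their markers. Lpl and Cd36 are also expressed by cardiomyocytes, and Cd36, Fabp4 and Fabp5 by macrophages and fat cells, so whole-heart RNA does not assign their reads to 1 cell type.

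Total counts were between 11853233 and 16145911 per library. The check of the genotype labels was Mcm8, at 0.392 ± 0.271 CPM in knockout hearts under LCWE and 4.09 ± 0.996 CPM in wild-type hearts under LCWE, and at 0.760 ± 0.147 CPM in knockout hearts and 3.66 ± 0.659 CPM in wild-type hearts under PBS (mean ± SD). CPM are counts scaled to the library size, with the TMM factors of edgeR. Cardiomyocyte markers (10 genes, led by Myh6) were high in every library, with sums of 96877 to 125607 CPM in knockout LCWE hearts, 89707 to 112849 CPM in knockout PBS hearts, 117546 to 132495 CPM in wild-type LCWE hearts and 108288 to 123078 CPM in wild-type PBS hearts. Myh7, the slow myosin heavy chain gene, stood apart in 4 knockout libraries, at 16702 and 20425 CPM in LCWE replicates 4 and 5 and 14213 and 13251 CPM in PBS replicates 1 and 3. It lay at 803 CPM in knockout PBS replicate 2, and at no more than 3216 CPM in every other library. Y-linked genes were high and Xist near 0 in knockout PBS replicate 1, wild-type LCWE replicate 1 and knockout LCWE replicates 1, 3 and 5. Knockout LCWE replicate 2 was low in both, and all wild-type PBS libraries expressed Xist. Myh7 state and sex were addressed only by fits without such libraries and by a fit with the summed Y-linked level as covariate. Of the members, values of these fits are given only for Cd36, Lpl and Car4, and not from every fit. They are given for LCWE in the knockout and for the knockout under PBS. Other comparisons have only their counts of genes called, further below. These fits were not made for the tests by sample-number range.

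Set per kilobase of exon, the members spanned a wide range of levels in wild-type PBS hearts. Lpl was highest at 402 ± 45.7 CPM per kilobase, followed by Cd36 at 386 ± 38.0, Aqp1 at 308 ± 34.8 and Fabp4 at 196 ± 26.4 (mean ± SD, n = 5). Lower came Gpihbp1 at 51.5 ± 5.03, Tcf15 at 37.5 ± 16.9, Car4 at 27.2 ± 5.36, Fabp5 at 20.1 ± 3.03 and Meox2 at 7.50 ± 1.31 CPM per kilobase. Neighbours that differed by less than the larger of their SDs were Lpl and Cd36, Gpihbp1 and Tcf15, and Tcf15 and Car4. The same order held in the means of the other groups, except that Car4 stood above Tcf15 in knockout PBS hearts. Lengths are the joined exons of GENCODE M21 on GRCm38, and a gene with a long, little used exon is understated on this scale.

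**Figure D1:**
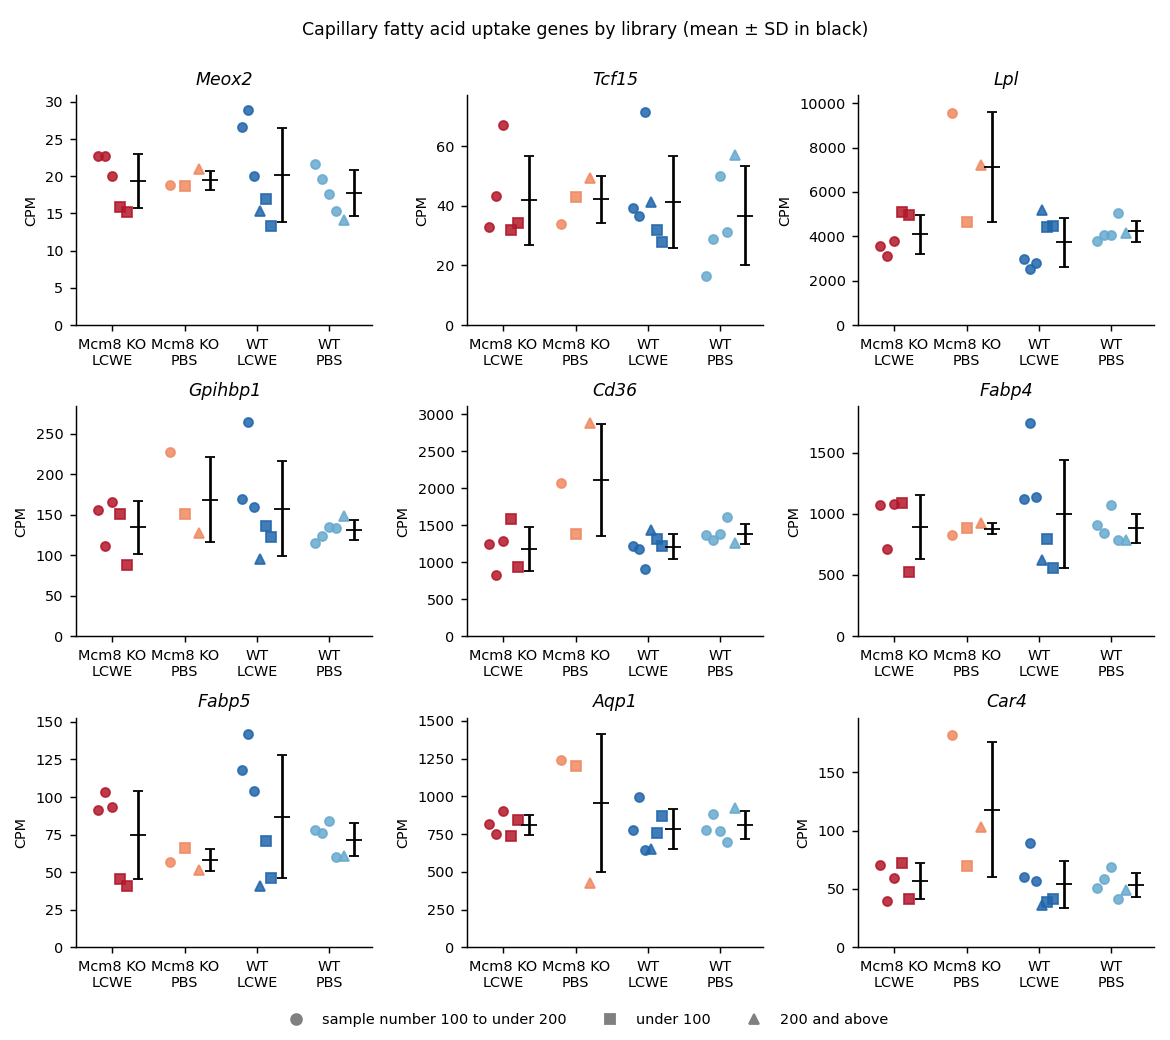
Level of each member in CPM (y axis, starting at 0) in each of the 19 libraries, by group, with black bars for mean ± SD and point shapes for ranges of the sample number in the label. Lpl and Cd36 are highest in knockout PBS replicates 1 and 3, and Fabp5 has a high and a low set of libraries within each LCWE group.

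Meox2 (chr12:37108540-37179534, plus strand, GRCm38), a homeobox transcription factor gene of capillary endothelium, had 22.7, 22.7, 20.1, 15.9 and 15.2 CPM in knockout LCWE hearts and 18.8, 18.7 and 20.9 CPM in knockout PBS hearts. It had a lowest value of 13.3, a median of 18.5 and a highest value of 28.9 CPM in wild-type LCWE hearts, against 21.7, 19.7, 17.6, 15.3 and 14.1 CPM in wild-type PBS hearts. All 4 groups overlapped, and the highest values were wild-type LCWE replicates 1 and 2. Its log2 fold change with LCWE was -0.0092 ± 0.22 in the knockout and 0.19 ± 0.18 in wild type (estimate ± SE, edgeR adjusted p = 0.987 and 0.895). A sense intronic transcript, Gm48617, overlaps Meox2 on the same strand, and how the authors' counting divided such reads is not given in the sources used here.

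Tcf15 (chr2:152143561-152149097, plus strand), the partner of Meox2, had 32.9, 43.5, 67.3, 31.8 and 34.1 CPM in knockout LCWE hearts and 34.0, 43.1 and 49.4 CPM in knockout PBS hearts. It had a lowest value of 27.7, a median of 38.0 and a highest value of 71.4 CPM in wild-type LCWE hearts, against 16.4, 29.0, 49.9, 31.1 and 57.1 CPM in wild-type PBS hearts. A single library in each LCWE group stood well above its fellows, and the wild-type PBS libraries alone covered most of the range. The log2 fold changes with LCWE, -0.0084 ± 0.35 in the knockout and 0.17 ± 0.29 in wild type, were smaller than their SEs.

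Lpl (chr8:68880491-68907448, plus strand), the lipase itself, had the highest level per kilobase of joined exon, a rank that depends on the lengths used. It had 3560.1, 3099.7, 3790.4, 5087 and 4949.9 CPM in knockout LCWE hearts, against 9568, 4625 and 7192 CPM in knockout PBS hearts. In wild type it had a lowest value of 2506, a median of 3715 and a highest value of 5177 CPM under LCWE, against 3779, 4069.7, 4051, 5037 and 4148 CPM under PBS. Knockout PBS replicates 1 and 3 stood above every other library, while replicate 2 lay below the highest knockout LCWE library. The LCWE difference in the knockout was -0.80 ± 0.24 on the log2 scale and missed the threshold of 0.05 (edgeR adjusted p = 0.0634). In wild type it was -0.18 ± 0.20 (adjusted p = 0.916).

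Gpihbp1 (chr15:75596628-75599481, plus strand), the carrier and anchor of the lipase, did not follow Lpl. It had 156.4, 111, 166, 151 and 88.5 CPM in knockout LCWE hearts and 228, 151 and 127 CPM in knockout PBS hearts. It had a lowest value of 95.2, a median of 148 and a highest value of 264 CPM in wild-type LCWE hearts, against 115, 124, 135, 134.1 and 149 CPM in wild-type PBS hearts. The groups overlapped, with knockout PBS replicate 1 and wild-type LCWE replicate 2 the highest. The log2 fold change with LCWE was -0.33 ± 0.26 in the knockout and 0.26 ± 0.22 in wild type (edgeR adjusted p = 0.466 and 0.881).

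Cd36 (chr5:17781690-17888801, minus strand), the fatty acid transporter, was the only member called with LCWE in the knockout, a call lost in 10 of the 19 fits that each leave out 1 library. It had 1253, 821, 1287, 1581 and 942 CPM in knockout LCWE hearts, against 2065, 1378 and 2884 CPM in knockout PBS hearts. In wild type it had a lowest value of 909.7, a median of 1219 and a highest value of 1436 CPM under LCWE, against 1375, 1297, 1378, 1612 and 1263 CPM under PBS. Knockout PBS replicates 1 and 3 were again the 2 highest libraries of the series, and replicate 2 lay within the range of the knockout LCWE libraries. Cd36 fell in the knockout with LCWE by a log2 fold change of -0.84 ± 0.21 (edgeR adjusted p = 0.0402), and differed by -0.19 ± 0.18 in wild type (adjusted p = 0.891). In bulk tissue, fewer cells of a type and less RNA per cell cannot be told apart.

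The bases before a RefSeq start of Cd36 are shown beside those of Car4, because these members had the largest LCWE differences in the knockout among those with an entry. The Cd36 window lies inside the gene span given above, so it precedes an internal start. Counts per gene do not tell which start was used. Promoter entries were matched for 4 of the 9 members, and the 250 bases before the start were used (RefSeq, GRCm38.p6). Capitals mark AGGTCA, the nuclear receptor half-site bound by PPAR and RXR family receptors, and CANNTG, the E-box bound by basic helix-loop-helix factors such as TCF15, each on either strand.
Cd36 chr5:17835897-17836146 (minus strand): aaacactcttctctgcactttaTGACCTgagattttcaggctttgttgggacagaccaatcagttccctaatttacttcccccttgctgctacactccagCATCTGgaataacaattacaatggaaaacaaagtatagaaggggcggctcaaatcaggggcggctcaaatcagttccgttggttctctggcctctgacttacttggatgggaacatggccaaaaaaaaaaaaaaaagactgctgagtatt
Car4 chr11:84957504-84957753 (plus strand): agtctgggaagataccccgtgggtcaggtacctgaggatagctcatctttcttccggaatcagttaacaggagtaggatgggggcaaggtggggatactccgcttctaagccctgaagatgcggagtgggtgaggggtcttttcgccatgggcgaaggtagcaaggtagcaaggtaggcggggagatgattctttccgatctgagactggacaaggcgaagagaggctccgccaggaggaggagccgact
The Cd36 window held 1 half-site, read as TGACCT at -228 from the start, and 1 E-box, CATCTG at -150, which do not overlap. The Car4 window held neither. Of 32851 mouse promoters of this length, 14% held the half-site and 66.2% an E-box. The spaced repeat AGGTCANAGGTCA, the usual PPAR and RXR element, was in 0.0335% of them and the homeodomain core TAATTA in 4.84%, and neither was in the Cd36 or the Car4 window. These letter matches are descriptions of the windows only.

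Fabp4 (chr3:10204088-10208576, minus strand), the binding protein of capillary endothelium and fat cells, had 1073, 714, 1079, 1084 and 522 CPM in knockout LCWE hearts and 827, 888 and 922 CPM in knockout PBS hearts. It had a lowest value of 558, a median of 960.3 and a highest value of 1744 CPM in wild-type LCWE hearts, against 907, 839.5, 1073, 789 and 789.8 CPM in wild-type PBS hearts. The PBS libraries kept close together and the LCWE libraries spread to both sides of them. The group means differed little, by 0.026 ± 0.29 in the knockout and 0.18 ± 0.24 in wild type with LCWE (log2).

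Fabp5 (chr3:10012548-10016607, plus strand), its relative of wider expression, had 91.4, 103, 93.2, 45.2 and 41.1 CPM in knockout LCWE hearts and 56.4, 66.0 and 51.4 CPM in knockout PBS hearts. It had a lowest value of 40.9, a median of 87.3 and a highest value of 142 CPM in wild-type LCWE hearts, against 78.1, 76.2, 83.8, 59.8 and 60.7 CPM in wild-type PBS hearts. Both LCWE groups split into a high and a low set of libraries, and the PBS libraries lay mostly between these sets. The log2 fold change with LCWE was 0.37 ± 0.37 in the knockout and 0.28 ± 0.30 in wild type (edgeR adjusted p = 0.575 and 0.910). Fabp5 has 5 processed pseudogenes with 93.6% to 98.3% identity over at least 336 bases, none of them listed in the count table, so some of its reads could have been shared or discarded by the counting.

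Aqp1 (chr6:55336432-55348555, plus strand), the water channel, varied least of the 9 among knockout LCWE hearts, with a coefficient of variation of 8.25%. It had 815, 752, 902, 739.8 and 843 CPM in knockout LCWE hearts and 1237, 1202 and 427 CPM in knockout PBS hearts. It had a lowest value of 644, a median of 767 and a highest value of 996 CPM in wild-type LCWE hearts, against 774, 881, 771, 697 and 923 CPM in wild-type PBS hearts. Knockout PBS replicate 3 held the lowest value of all 19 libraries and replicates 1 and 2 the highest, which differs from the pattern of Lpl and Cd36 in the same hearts. The log2 fold changes with LCWE were -0.24 ± 0.23 in the knockout and -0.049 ± 0.19 in wild type.

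Car4 (chr11:84957786-84966044, plus strand), the membrane-bound carbonic anhydrase of capillaries, had 70.7, 39.7, 59.8, 72.0 and 41.1 CPM in knockout LCWE hearts, against 182, 69.7 and 103 CPM in knockout PBS hearts. In wild type it had a lowest value of 36.4, a median of 49.4 and a highest value of 89.3 CPM under LCWE, against 50.7, 58.2, 68.9, 41.0 and 48.8 CPM under PBS. Its 3 knockout PBS libraries lay above all 5 wild-type PBS libraries, with the lowest of them only just so, and knockout PBS replicate 1 was the highest of all. The share of all tested genes that separate these groups was not counted. The LCWE difference in the knockout was -1.06 ± 0.30 (edgeR adjusted p = 0.0590), the largest log2 estimate of the 9 members, and it missed the threshold. In wild type the difference was 0.013 ± 0.26 (adjusted p = 0.995).

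**Figure D2:**
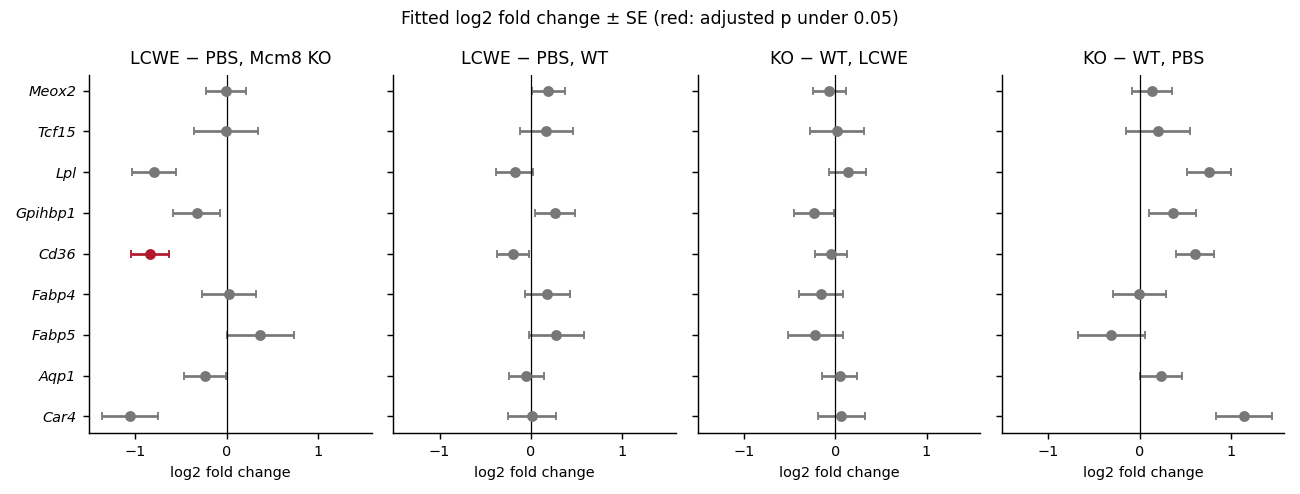
Fitted log2 fold change ± SE (x axis) of the 9 members in 4 comparisons, each panel naming the group on top first, with red for an adjusted p under 0.05. The only red point is Cd36 for LCWE against PBS in the knockout at -0.84, and the estimates of Lpl, Cd36 and Car4 for knockout against wild type under PBS lie on the opposite side of 0.

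For LCWE against PBS in the knockout, 1 of 9 members was called, and 2.9% of all tested genes were (415, of which 298 fell). Cd36, Lpl and Car4 had an unadjusted p under 0.05. DESeq2 called all 3 of them, with 1260 genes in all, and limma-voom called 0 members and 113 genes. The median log2 fold change of the 9 members was -0.24, beside 0.0082 over all tested genes. The Cd36 call was lost with limma-voom (adjusted p = 0.0564), with library totals (-0.79 ± 0.21, edgeR adjusted p = 0.0552), with a covariate for the number range of the labels (-0.72 ± 0.22, adjusted p = 0.0837) and with only the groups compared (-0.84 ± 0.26, adjusted p = 0.212). Without knockout PBS replicate 3 it was -0.55 ± 0.22 (edgeR adjusted p = 0.188), and without the 4 libraries high in Myh7 it was -0.30 ± 0.25 (adjusted p = 0.987). Among libraries with Xist over 100 CPM, where replicate 4 is the only knockout LCWE library, it was -0.43 ± 0.36 (adjusted p = 0.746). With the Y-linked level as covariate both Cd36 (-0.83 ± 0.22, adjusted p = 0.0378) and Car4 (-1.10 ± 0.29, adjusted p = 0.0402) were called, with 807 genes in all. The call was also lost, with log2 fold changes of -0.74 to -0.88 and an adjusted p of up to 0.243, without any 1 of knockout PBS replicate 1, knockout LCWE replicates 1, 2, 3 or 5, wild-type LCWE replicate 1 or wild-type PBS replicates 1, 2 or 3. The number of genes called was 1 without knockout PBS replicate 1 and 2935 without replicate 2, where Lpl (-1.03 ± 0.25) and Car4 (-1.33 ± 0.31) were called beside Cd36. It was 19 to 57 without knockout PBS replicate 3 or knockout LCWE replicate 1, 3 or 5, and 741 without wild-type LCWE replicate 3. Without wild-type PBS replicate 1, 2, 3 or 4 or wild-type LCWE replicate 1 it was 210 to 256. Without the 4 libraries high in Myh7, Lpl was at -0.41 and Car4 at -0.30, beside -0.80 and -1.06 with all libraries. The fit without the high Myh7 libraries keeps 1 knockout PBS library, and the fit on Xist 1 knockout LCWE library, whose spread is assumed to be that of the other groups.

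For knockout against wild type under PBS, 0 of 9 members were called by edgeR, and 0.601% of all tested genes were (86). Unadjusted, 3 members had p under 0.05, and DESeq2 called 2, Lpl and Car4, while limma-voom called 0. Car4 averaged 118 ± 57.7 CPM in knockout hearts and 53.5 ± 10.5 CPM in wild-type hearts, a log2 fold change of 1.14 ± 0.30 (edgeR adjusted p = 0.0737). Lpl averaged 7128 ± 2472 CPM in knockout hearts and 4217 ± 479 CPM in wild-type hearts (0.76 ± 0.24, adjusted p = 0.0990). Cd36 averaged 2109 ± 754 CPM in knockout hearts and 1385 ± 136.3 CPM in wild-type hearts (0.61 ± 0.21, adjusted p = 0.127). The other 6 members ran between -0.31 ± 0.37 for Fabp5 and 0.36 ± 0.26 for Gpihbp1. Without knockout PBS replicate 2 all 3 genes were called, at 1.41 ± 0.31, 0.99 ± 0.25 and 0.84 ± 0.21. Without the 4 libraries high in Myh7, which leaves only replicate 2, the estimates were 0.38 ± 0.39, 0.13 ± 0.31 and -0.0084 ± 0.24. With the sample-number range as covariate edgeR called Car4 (1.30 ± 0.27, adjusted p = 0.0212) and 524 genes in all, and with the Y-linked level as covariate 0 genes, with Car4 at 0.95 ± 0.31 (adjusted p = 0.197). The count of 86 genes was 2606 without knockout PBS replicate 2, and 0 without knockout PBS replicate 1 or 3, wild-type PBS replicate 1, 2 or 3, or wild-type LCWE replicate 5. It was 1 and 5 without wild-type PBS replicates 4 and 5, and 27 to 48 without knockout LCWE replicate 1 or 3 or wild-type LCWE replicate 1, 4 or 6. This comparison shares the knockout PBS libraries with the LCWE comparison in the knockout, so opposite signs in the 2 are not separate observations.

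With all sample numbers pooled, the comparisons under LCWE and in wild type gave few calls. That does not show that the groups were alike. For knockout against wild type under LCWE, 0 of 9 members were called, beside 0.00699% of all tested genes (1, Mcm8 itself). None of the 9 had an unadjusted p under 0.05, and neither DESeq2 nor limma-voom called a member. The member estimates ran between -0.23 ± 0.22 for Gpihbp1 and 0.14 ± 0.20 for Lpl. Among only the libraries in the sample-number range described below, they ran between -0.47 ± 0.20 for Fabp4 and 0.35 ± 0.14 for Lpl. Gpihbp1 was at -0.44 ± 0.19 and Fabp5 at -0.33 ± 0.14 there. The calls of that fit are given further below. For LCWE against PBS in wild type, 0 of 9 members and 0% of all tested genes were called, with 892 genes but no member at an unadjusted p under 0.05. DESeq2 called 1 gene and limma-voom 0 there, none of them a member.

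The test of whether the LCWE difference depends on genotype called 0 of 9 members and 0% of all tested genes. At an unadjusted p under 0.05 there were 1145 genes and 2 members, Car4 (-1.07 ± 0.40, edgeR adjusted p = 0.587) and Cd36 (-0.65 ± 0.27, edgeR adjusted p = 0.598). DESeq2 called 5 genes and limma-voom 0, none of them a member. Averaged over genotypes, LCWE against PBS called 1 of 9 members, Cd36 (-0.52 ± 0.14, edgeR adjusted p = 0.0457), beside 2.95% of all tested genes, and that call was lost without any 1 of 15 libraries, all but knockout LCWE replicate 4, knockout PBS replicate 2 and wild-type LCWE replicates 4 and 6 (edgeR adjusted p of 0.0510 to 0.146). Knockout against wild type averaged over treatments called 0 of 9 members, beside 0.014% of all tested genes, with 2 members at an unadjusted p under 0.05 and 1 called by DESeq2, Car4.

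Lpl and Fabp5 within the LCWE groups followed the sample numbers in the labels, whose meaning is not given in the sources used here. Numbers from 100 to under 200 were carried by knockout LCWE replicates 1, 2 and 3, wild-type LCWE replicates 1, 2 and 3, knockout PBS replicate 1 and wild-type PBS replicates 1 to 4. In knockout LCWE hearts the libraries outside this range, replicates 4 and 5, are those high in Myh7 (16702 and 20425 CPM). Range and Myh7 state cannot be told apart there. Lpl in knockout LCWE hearts was 3560.1, 3099.7 and 3790.4 CPM in that range, beside 5087 and 4949.9 CPM outside it. Lpl in wild-type LCWE hearts was 2998, 2506 and 2783 CPM in the range, beside 5177, 4432 and 4442 CPM outside it. In both genotypes every LCWE library in the range was below every LCWE library outside it.

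Fabp5 ran the other way. In knockout LCWE hearts it was 91.4, 103 and 93.2 CPM in the range, beside 45.2 and 41.1 CPM outside it. In wild-type LCWE hearts it was 118, 142 and 104 CPM in the range, beside 40.9, 70.9 and 45.8 CPM outside it. Again the sets did not overlap in either genotype, and the libraries with least Lpl had most Fabp5. For neither gene was the share of all tested genes that separate in this way counted.

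**Figure D3:**
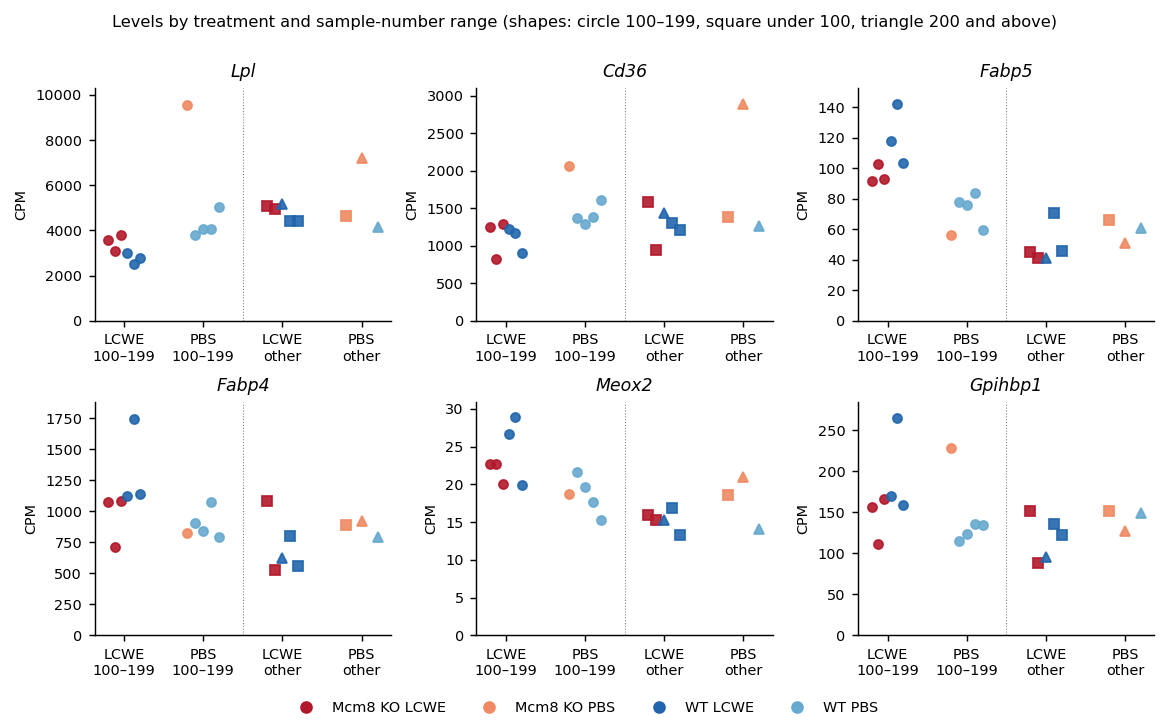
CPM (y axis, starting at 0) of 6 members in LCWE and PBS libraries, with sample numbers from 100 to under 200 left of the dotted line and all other numbers right of it. In the left range every LCWE library has more Fabp5 than every wild-type PBS library, and less Lpl except that knockout LCWE replicate 3 (3790.4 CPM) lies just above the lowest of them (3779 CPM). The right range holds 1 wild-type PBS library, and there every LCWE library has more Lpl than it and all but wild-type LCWE replicate 5 have less Fabp5. Knockout PBS libraries are at 9568 CPM Lpl on the left and at 4625 and 7192 CPM on the right. The one at 7192 CPM lies above every LCWE library.

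A fit with a mean for each group and range, added after the data were seen, set LCWE libraries in the range against LCWE libraries outside it, averaged over genotypes. It called 4 of 9 members, beside 13.7% of all tested genes (1963). Fabp5 rose by 1.18 ± 0.14 on the log2 scale (edgeR adjusted p = 3.74e-04), Meox2 by 0.61 ± 0.11 (adjusted p = 0.00319) and Fabp4 by 0.63 ± 0.19 (adjusted p = 0.0356). Lpl fell, with -0.64 ± 0.11 (adjusted p = 0.00236). Gpihbp1 was at 0.51 ± 0.17 (adjusted p = 0.0533), and Cd36 at -0.22 ± 0.18 (adjusted p = 0.473).

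Taken by genotype, the same fit called 1 of 9 members in knockout LCWE hearts, beside 3.15% of all tested genes (451), and 5 of 9 in wild-type LCWE hearts, beside 12.8% (1831). Fabp5 rose in both, by 1.15 ± 0.21 in the knockout (edgeR adjusted p = 0.0120) and 1.21 ± 0.18 in wild type (adjusted p = 0.00437). Lpl was at -0.53 ± 0.17 in the knockout (adjusted p = 0.103) and fell in wild type (-0.76 ± 0.15, adjusted p = 0.00870). Meox2 was at 0.49 ± 0.17 in the knockout (adjusted p = 0.134) and rose in wild type (0.73 ± 0.15, adjusted p = 0.00919). Fabp4 was at 0.25 ± 0.28 in the knockout (adjusted p = 0.708) and rose in wild type (1.02 ± 0.25, adjusted p = 0.0183), as did Gpihbp1 there (0.75 ± 0.22, adjusted p = 0.0365). The test of whether the range difference depends on genotype called 0 of 9 members, beside 0.629% of all tested genes (90, of which 87 were lower), and Fabp4 was at -0.77 ± 0.37 (adjusted p = 0.343).

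Within the range, LCWE could be set against PBS in wild type with 3 LCWE and 4 PBS libraries. There 2 of 9 members were called, beside 8.28% of 14747 genes tested (1221, of which 768 rose and 453 fell). Lpl was 2998, 2506 and 2783 CPM in LCWE hearts, against 3779, 4069.7, 4051 and 5037 CPM in PBS hearts, and it fell (-0.65 ± 0.13 on the log2 scale, edgeR adjusted p = 0.0191). Fabp5 was 118, 142 and 104 CPM in LCWE hearts, against 78.1, 76.2, 83.8 and 59.8 CPM in PBS hearts, and it rose (0.68 ± 0.13, edgeR adjusted p = 0.0174). The LCWE and PBS libraries did not overlap for either gene, and the share of all tested genes that separate in this way was not counted. Wild-type LCWE replicate 1 (Lpl 2998 CPM, Fabp5 118 CPM) was high in Y-linked genes, while all wild-type PBS libraries expressed Xist. The part of sex in these differences was not tested. Gpihbp1 (0.61 ± 0.18, adjusted p = 0.0549), Fabp4 (0.53 ± 0.19, adjusted p = 0.0901), Meox2 (0.41 ± 0.15, adjusted p = 0.0969) and Cd36 (-0.39 ± 0.17, adjusted p = 0.155) missed the threshold.

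Whether LCWE differed between ranges in wild type was tested in the same fit, where 1 PBS library stands outside the range. It called 0 of 9 members and 0% of all tested genes, with 1951 genes and 4 members at an unadjusted p under 0.05. Among these were Fabp5 (0.91 ± 0.30, edgeR adjusted p = 0.239) and Lpl (-0.79 ± 0.27, edgeR adjusted p = 0.239). For LCWE in wild type within the range, 8.28% of 14747 genes tested were called. Of 13 macrophage markers, 9, led by C1qb (1.16 ± 0.12, edgeR adjusted p = 0.00395) and C1qa (1.06 ± 0.13, adjusted p = 0.00598), rose there. The summed level of the macrophage list in knockout LCWE hearts was 334, 277 and 324 CPM in the range and 761 and 512 CPM outside it. In wild-type LCWE hearts the sum was 417, 402 and 459.8 CPM in the range and 229, 272 and 291 CPM outside it. Of 20 pan-endothelial markers, 3 rose with LCWE in wild type within the range, Icam2 (0.73 ± 0.14), Ecscr (0.69 ± 0.15) and Egfl7 (0.65 ± 0.14), and 1 fell, the receptor gene Flt1 (-0.61 ± 0.17). The part of macrophages and of endothelial content in the Lpl and Fabp5 results was not tested.

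Across libraries the members did not form 1 block. The correlations below are descriptions over 19 libraries of log2 CPM, which share preparation, depth and tissue mix. Lpl and Fabp5 had a Pearson r of -0.76 (Spearman rho -0.92), and -0.83 for deviations from the group means. Lpl ran with Cd36 (0.76, and 0.58 for deviations). Fabp5 ran with Meox2 (0.83 and 0.88) and with Fabp4 (0.74 and 0.75), and Gpihbp1 with Fabp4 (0.77 and 0.80) and Car4 (0.71 and 0.81). Lpl and its anchor Gpihbp1 had r = -0.12, with -0.36 for deviations and -0.62 without the 2 libraries farthest from the median of Lpl, and the transcription partners Meox2 and Tcf15 had r = 0.027. Leaving out the same 2 libraries gave -0.91 for Lpl and Fabp5 and 0.55 for Lpl and Cd36.

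**Figure D4:**
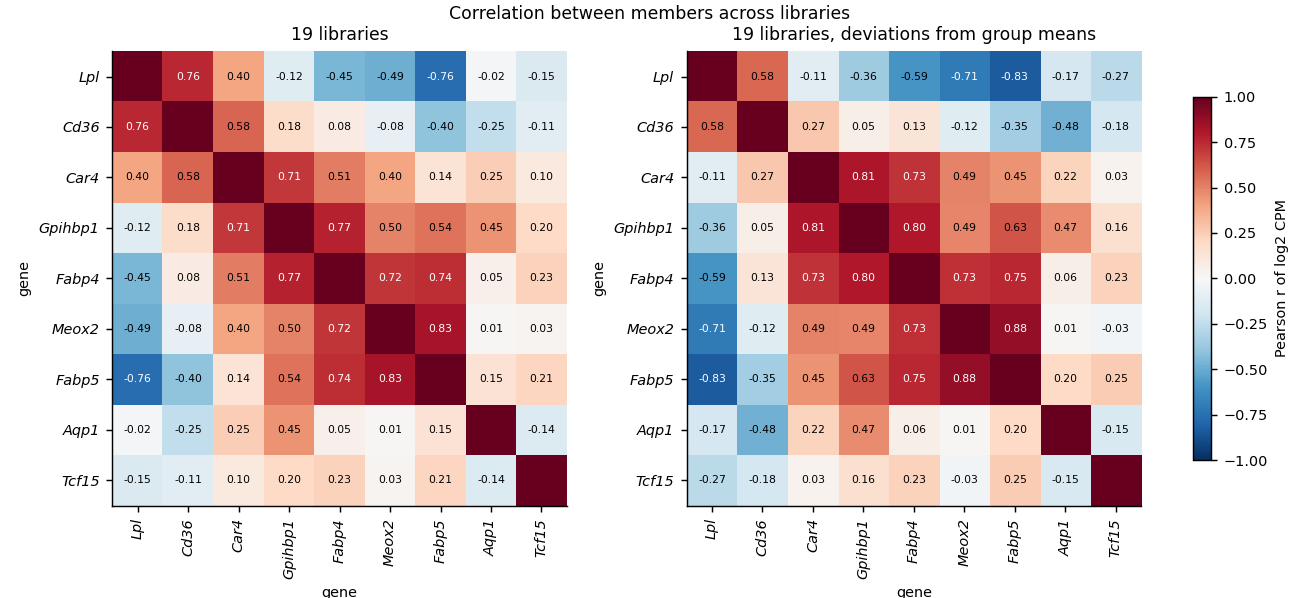
Pearson r of log2 CPM between members over 19 libraries (left) and of the deviations from group means (right), from -1 in blue to 1 in red. Gpihbp1, Fabp4, Meox2 and Fabp5 are positively correlated with each other in both panels, and Lpl is negatively correlated with Fabp5 in both.

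The genes whose pattern was most like the mean standardised level of the 9 members, among genes with a mean of at least 5 CPM, were Spaar (Pearson r = 0.89), Usp43 (0.88), Myl12a (0.88), Ushbp1 (0.85), Thsd1 (0.85) and Cltb (0.84), over 19 libraries. With the 2 libraries farthest from the median left out, these values lay between 0.73 and 0.82.

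The rest of the pathway was described by lists drawn up with earlier results of these data known, and their calls share the dependence on single libraries given above, with 1 gene called in all without knockout PBS replicate 1. For LCWE against PBS in the knockout, 2.9% of all tested genes were called (415, of which 298 fell). Of 20 genes of fatty acid use in cardiomyocytes, 7 fell and 0 rose, with a median of -0.72 beside 0.0082 over all tested genes. Cd36 is 1 of the 7. The others named by smallest p were Etfdh, which passes electrons from fatty acid oxidation to the respiratory chain (-0.80 ± 0.17, edgeR adjusted p = 0.0301), the carnitine carrier gene Slc25a20 (-0.64 ± 0.15, adjusted p = 0.0346) and the acyl-CoA dehydrogenase gene Acadm (-0.60 ± 0.14, adjusted p = 0.0357). Under PBS, knockout against wild type called 0 of these 20 genes, with a median of 0.55 and 18 of 20 above 0, and Slc25a20 at 0.58 ± 0.15 (adjusted p = 0.0617). In wild type the LCWE median of the list was -0.0008, with 0 of 20 called.

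With LCWE in the knockout 2.9% of all tested genes were called. Genes of lipid transport and its control in endothelium had 3 of 29 lower and 0 higher there (median -0.26). These were Pnpla2, the adipose triglyceride lipase gene (-1.11 ± 0.28, edgeR adjusted p = 0.0418), the Notch target Hey1 (-0.92 ± 0.23, adjusted p = 0.0418) and Fabp3, the heart fatty acid binding protein gene, which cardiomyocytes express strongly (-0.84 ± 0.22, adjusted p = 0.0426). Lipoprotein lipolysis genes had 0 of 14 called (median 0.029), among them Sel1l, needed for lipase maturation (-0.50 ± 0.22, adjusted p = 0.177). Other heart capillary markers had 1 of 16 lower, Cyp4b1, a fatty acid hydroxylase family gene, with LCWE in the knockout (-1.27 ± 0.16, adjusted p = 0.00203). Cyp4b1 rose in knockout against wild type under PBS (0.90 ± 0.16, edgeR adjusted p = 0.0316), where 0.601% of all tested genes were called.

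**Figure D5:**
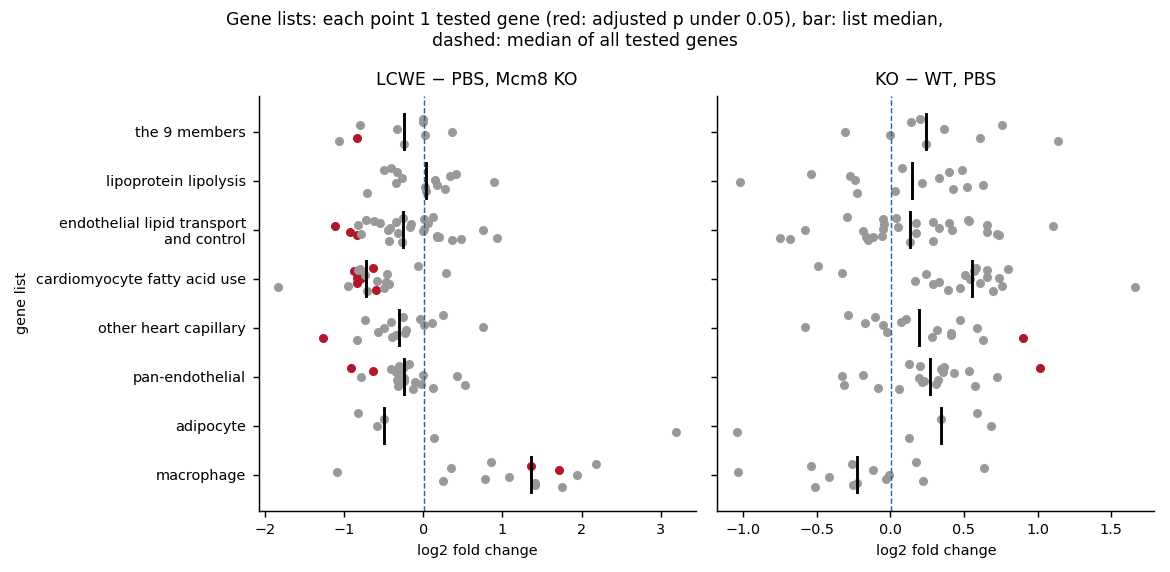
Log2 fold change (x axis) of every tested gene of 8 lists for LCWE against PBS in the knockout (left) and knockout against wild type under PBS (right), with black bars for list medians, a dashed line for the median of all tested genes and red for an adjusted p under 0.05. Cardiomyocyte fatty acid genes have a median of -0.72 on the left and 0.55 on the right, and the panels share the knockout PBS libraries.

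With LCWE in the knockout 2.9% of all tested genes were called. Pan-endothelial markers had 2 of 20 lower there, the transcription factor gene Sox17 (-0.91 ± 0.22, edgeR adjusted p = 0.0355) and the phosphatase gene Ptprb (-0.64 ± 0.17, adjusted p = 0.0446), with a median of -0.25. Their summed level was 2377 to 3383 CPM in knockout LCWE libraries, 3240.3 to 3861 CPM in knockout PBS libraries, 2521 to 3464 CPM in wild-type LCWE libraries and 2596 to 3107 CPM in wild-type PBS libraries. The sum was thus higher in every knockout PBS library than in any wild-type PBS library, and the share of all tested genes that separate these groups was not counted. In knockout against wild type under PBS, 1 of the 20 markers was called, beside 0.601% of all tested genes. It was Sox17, which rose (1.02 ± 0.22, edgeR adjusted p = 0.0464). Arterial, venous and lymphatic markers had 3 of 12 lower with LCWE in the knockout, Nr2f2 (-0.76 ± 0.18), Efnb2 (-0.67 ± 0.17) and Hey1. The part of endothelial content in the Cd36 result was not tested.

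Markers of other cells that hold these genes were set beside them. Macrophage markers had 2 of 13 higher with LCWE in the knockout, Mrc1 (1.36 ± 0.25, edgeR adjusted p = 0.0182) and Itgam (1.72 ± 0.45, adjusted p = 0.0446), and summed to 277 to 761 CPM in knockout LCWE libraries, 124 to 293 CPM in knockout PBS libraries, 229 to 459.8 CPM in wild-type LCWE libraries and 215 to 250.2 CPM in wild-type PBS libraries. Adipocyte markers summed to 349.7 to 944 CPM in knockout LCWE libraries, 732 to 860.4 CPM in knockout PBS libraries, 234 to 778 CPM in wild-type LCWE libraries and 451 to 791 CPM in wild-type PBS libraries, most of it Plin4, which cardiomyocytes also express. The defining fat cell genes Adipoq and Plin1 stayed below 2 CPM in every library and Lep was at 0 in all. Cardiomyocyte markers had 1 of 10 higher, Actc1 (0.96 ± 0.25), fibroblast markers 1 of 10 higher, Dpt (0.99 ± 0.26), and mural, erythroid, liver, skeletal muscle and Y-linked genes had 0 called of 10, 3, 7, 8 and 4 tested. Adipocyte markers had 0 of 5 called, with Thrsp at -0.82 ± 0.22 (adjusted p = 0.0508), and among mural markers Acta2 was at 2.21 ± 0.62 (adjusted p = 0.0583). The 4 globin genes of the erythroid list had 0 counts in every library. Liver markers, led by Alb, varied widely within groups. They summed to 112 to 243 CPM in knockout LCWE libraries and 5.88 to 421 CPM in knockout PBS libraries, where replicate 3 was highest. In wild type they summed to 5.87 to 478 CPM under LCWE and 3.09 to 365 CPM under PBS. The part of liver RNA in the member results was not tested.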

How the data were processed

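Per the labels' protocols, heart RNA went through reverse transcription and preamplification with an amplification kit (Discover-sc WTA), which can alter the relative level of transcripts. The deposited values are raw counts per gene symbol, made by the authors and not normalized. The submitters' processing notes list STAR 2.7.8a, limma 3.36.160 and GRCm38 with no role for each, and how reads were counted, on which annotation and with what strand setting is not given in the sources used here. The labels' genotype and treatment set the groups, and 0 columns of other samples were used. Of the 25239 symbols, 24366 matched GENCODE M21.

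From the deposited counts, edgeR 4.0.16 (R 4.3.3) kept 14301 genes (filterByExpr, minimum count 10, minimum total 15), scaled libraries by TMM and fitted its robust quasi-likelihood model to 4 groups. Adjusted p-values are Benjamini-Hochberg over all tested genes, two-sided, with a threshold of 0.05; "rose" and "fell" are used only past it. Log2 CPM used a prior count of 2. Each SE was derived from the edgeR test, as the size of the log2 fold change over the square root of its F statistic. The SE is thus not separate evidence from the p-value. No 2 libraries looked like duplicates (lowest mean chi-square per gene 7.85 within groups). Total counts of 11853233 to 16145911 left each member at least 190 counts per library, so spread between samples, more than counting error, sets the precision for most members. Meox2 in knockout PBS hearts, at 268 to 278 counts, had a coefficient of variation of 6.63%, about the size of counting error. Each member was matched by symbol; copies and overlapping genes were looked up in GENCODE M21. The procedure was tested on simulated counts. Named are the 9 members, Mcm8, and up to 4 called genes of each list by smallest p, or those of smallest p where none was called; some genes that this rule picks are left out. The members and 16 lists were chosen with earlier results of these data known, so the lists support nothing on their own.

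Alternatives were RLE factors, library totals, no filter or a filter of 5 CPM in 3 libraries, edgeR without robust estimation, limma-voom (limma 3.58.1), DESeq2 1.42.0, only the groups compared, the sample-number range as covariate, 1 surrogate variable (sva 3.50.0), the Y-linked level, only numbers from 100 to under 200, and leaving out each library. Fits without 4 libraries over 10000 CPM Myh7, with only libraries over 100 CPM Xist, and by group and number range were added after the data were seen.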

Additional observations from a re-analysis of the deposited data

Results flagged for a closer look

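Tcf15 in wild-type LCWE replicate 3 was at 71.4 CPM, apart from the other 5 wild-type LCWE libraries, which lay between 27.7 and 41.4 CPM. The gap to the nearest was 0.688 of the group's range, over the critical value of 0.625 for 6 samples. It was the only such value among 27 combinations of member and group, and chance alone gives about 1 in 20.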

How the results depend on the processing

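No paired analysis was possible because the labels give the groups no shared replicate numbers. For LCWE against PBS in the knockout, genes called (members called) were 229 (0) with library totals, 1260 (3) with DESeq2, 113 (0) with limma-voom, 0 (0) with only the groups compared, 116 (0) with the number range and 807 (2) with the Y-linked level as covariate, 4001 (4) in numbers from 100 to under 200, 2 (0) without the 4 libraries high in Myh7 and 0 (0) with only Xist-expressing libraries. Nr2f2 reversed to 0.13 without the 4 libraries. For LCWE in wild type, 1 gene was called by DESeq2 and 1221 (2) in the number range. For knockout against wild type under LCWE, 0 genes were called with at least 5 CPM in 3 libraries, 8 by DESeq2, 0 in the number range and 18 with only Xist-expressing libraries. Under PBS they were 21 with library totals, 699 (2) by DESeq2, 1 by limma-voom, 1 with only the groups compared, 524 (1, Car4) with the number range, 56 with 1 surrogate variable and 0 with the Y-linked level as covariate, 3985 (4) in the number range, 7 without the 4 libraries and 1 with only Xist-expressing libraries. The interaction had 5 genes by DESeq2 and 2230 (3) in the number range. In that range the knockout PBS group is 1 library, assumed to vary like the rest. Averaged over genotypes, LCWE had 234 (0) with no filter, 1351 (2) by DESeq2, 144 (0) by limma-voom, 51 (0) with the number range and 953 with the Y-linked level as covariate, 4527 (4) in the number range, 0 (0) without the 4 libraries and 55 (0) with only Xist-expressing libraries. Averaged over treatments, knockout against wild type had 1 at 5 CPM, 672 (1) by DESeq2, 260 with the number range as covariate, 3349 (3) in the range and 8 with only Xist-expressing libraries. The causes were not tested.

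Leaving out each library in turn gave 1 to 2935 genes (0 to 3 members) for LCWE in the knockout, 0 (0) for LCWE in wild type, 1 to 2 (0 to 0) for knockout under LCWE, 0 to 2606 (0 to 3) for knockout under PBS, 0 to 481 (0 to 0) for the interaction, 0 to 2847 (0 to 3) for LCWE averaged and 1 to 2397 (0 to 3) for knockout averaged. Cd36 in the knockout lost its call in 10 of these 19 fits, at adjusted p from 0.0507 to 0.243, and in 15 averaged over genotypes. The highest counts for LCWE in the knockout and for knockout under PBS came without knockout PBS replicate 2, and the lowest for the first of these without replicate 1. Over 3444 recomputed fold changes of members and list genes, 2817 kept their side of the threshold, 588 lost a call, 38 gained one and 1 reversed. Of 2075 that were uncalled both ways, 124 had the other sign. Library totals in place of TMM moved the median of all genes in the interaction to 0.098, against -0.020, a shift of 0.12 on the log2 scale, and relative to that median Car4 was at -1.03 and Cd36 at -0.63, against -1.05 and -0.63 with TMM. In the other 6 comparisons, and with RLE factors in all 7, the median moved by less than 0.1. Counting error limits Mcm8 in the knockout, at 2 to 13 counts.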

Other observations

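Set against single members, and chosen after their values were seen, the genes of at least 5 CPM closest to Lpl over the 19 libraries included the long-chain acyl-CoA dehydrogenase gene Acadl (Pearson r = 0.94). Those closest to Cd36 included the catalase gene Cat (0.95), Etfdh (0.92) and Hadha, which encodes a subunit of the mitochondrial trifunctional protein (0.91). Those closest to Fabp5 were of another kind, among them the myosin light chain gene Myl6 (0.94), the caveolin gene Cav1 (0.93), Rhoc (0.93) and Tagln2 (0.93). For deviations from the group means the values were 0.89 for Cat and 0.95 for Myl6. The libraries share preparation, depth and tissue mix, and these values are descriptions.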
